A study of Mus musculus with 17 samples.

Results

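A pair of structural changes at the same stretch of mouse chromosome 11 were set against each other: Dup-C, a duplication at the Sox9-Kcnj locus that spans the boundary between its domains and includes Kcnj2, and ΔBor, a deletion of that boundary. The comparison holds 5 of the 17 samples of the series, chosen by genotype and age: the 2 Dup-C and the 3 ΔBor libraries of limb buds of embryonic stage E12.5. Of the ΔBor libraries 2 were heterozygous (het 1 and het 2) and 1 was homozygous (hom), and the 3 were read as 1 arm. The other limb-bud groups with a column in the tables, used here for their levels and in 1 alternative fit, were wild type (WT, 4 libraries), the duplication Dup-L (2) and Dup-LΔBor, which joins Dup-L with the boundary deletion (4). By its title, the series is about duplications that form extra chromatin domains. Whole limb buds were snap-frozen and their polyadenylated RNA was sequenced. The labels give no zygosity for Dup-C, and no strain, sex, limb or embryo for any library. They do not say that replicates are separate embryos, so p-values here reflect only how far these libraries lie apart, part of which may be technical. In bulk tissue, fewer cells of a type and less RNA per cell cannot be told apart.

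Mammalian chromosomes fold into topologically associating domains, stretches of DNA that contact themselves more than their neighbours. A boundary between domains limits which enhancers reach which genes. Sox9 encodes the transcription factor that starts cartilage formation and has distant enhancers spread over a gene desert. On the far side of the boundary lie Kcnj2 and Kcnj16, genes of inward-rectifier potassium channels, which set the resting potential of cells. A duplication that spans the boundary can form an extra domain with a copy of Kcnj2 in it, whereas loss of the boundary leaves the normal gene copies and joins the domains.

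Total counts ran from 37937745 to 51992639 in the 5 samples and from 34486256 to 53711742 over all 15. The libraries compared, WT 1, WT 2 and Dup-L carry library numbers of 1 range in the table's column headers, and WT 3, WT 4 and Dup-LΔBor of another, so WT means and differences among WT libraries run across both ranges. The hom column is numbered as replicate 3 where its label gives replicate 1. All 5 were high in hindlimb genes: the hindlimb regulator Pitx1 stood at 86.9 and 66.1 CPM (counts scaled to library size) in Dup-C and at 39.1, 117 and 76.8 CPM in het 1, het 2 and hom. Xist, transcribed from the inactive X chromosome, was high in Dup-C 1 (2551 CPM) and hom (2747 CPM) and no higher than 1.28 CPM in het 1, het 2 and Dup-C 2. The arms thus overlapped in Pitx1, and each held 1 library high in Xist.

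In the order Dup-C, ΔBor and WT, Kcnj2 expression went from highest to lowest, but the step between Dup-C and ΔBor did not pass the test over all genes. Sox9 lay within its WT range or just above it in both mutants. Kcnj2 stood at 86.5 and 71.9 CPM in Dup-C 1 and 2, against 43.6 CPM in het 1, 30.7 CPM in het 2 and 60.3 CPM in hom. Both Dup-C libraries lay above all ΔBor libraries, as in 14.5% of all genes tested, and hom lay above both het libraries. The mean was 79.2 ± 10.4 CPM in Dup-C (SD, n = 2) and 44.9 ± 14.9 CPM in ΔBor (SD, n = 3), beside 22.1 ± 3.01 CPM in WT (SD, n = 4). The log2 fold change of Kcnj2, Dup-C over ΔBor, was 0.84 (SE 0.25, 95% interval 0.27 to 1.42), with an unadjusted p of 0.00983 and an adjusted p of 0.263 in edgeR's quasi-likelihood test over all genes, with Benjamini-Hochberg adjustment. Of the 16375 genes tested, 605 had a lower p than Kcnj2. The value turned on the hom library: without it the log2 fold change was 1.13 (adjusted p = 0.0389), and against hom alone it was 0.40 (adjusted p = 0.88). DESeq2 on all 5 libraries gave 0.83 with an adjusted p of 0.0404.

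**Figure D1:**
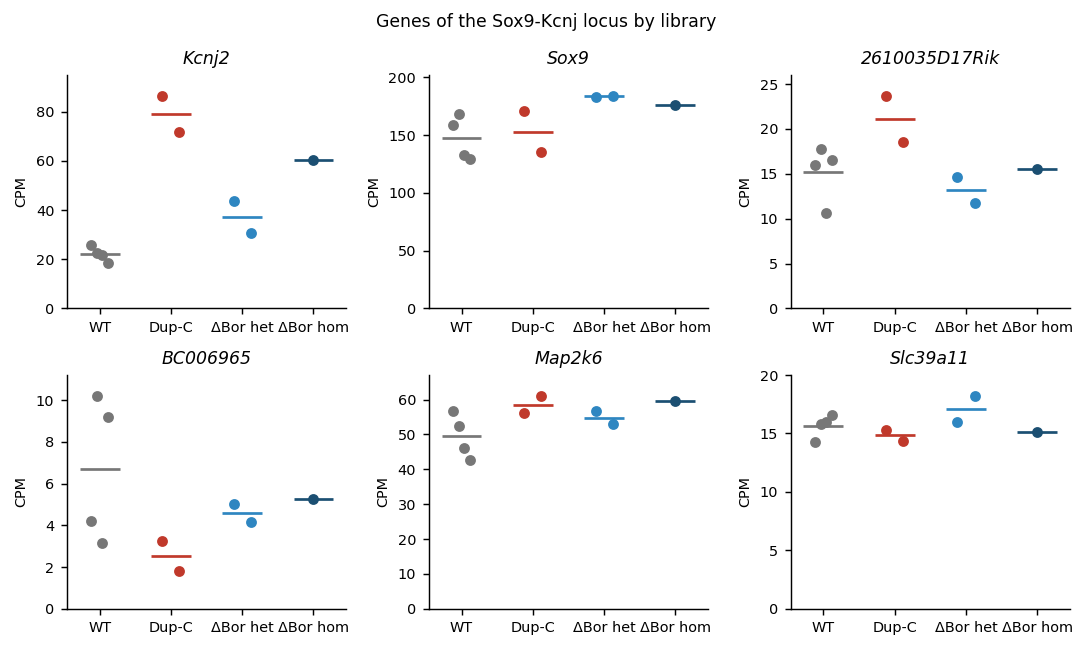
Levels in CPM (linear axes) of Kcnj2, Sox9, 2610035D17Rik, BC006965, Map2k6 and Slc39a11 in the WT, Dup-C, ΔBor het and ΔBor hom libraries; each point is a library and each line a group mean. Kcnj2 lies at 71.9 CPM or more in Dup-C, between 30.7 and 60.3 CPM in ΔBor and between 18.4 and 25.7 CPM in WT, while Sox9 overlaps WT in Dup-C.

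Sox9 stood at 171 and 135 CPM in Dup-C and at 183, 184 and 176 CPM in het 1, het 2 and hom. The ΔBor libraries lay close together, above both Dup-C libraries, an order of the arms found in 16.6% of all genes tested. The mean was 153 ± 25.5 CPM in Dup-C (SD, n = 2), 181 ± 4.67 CPM in ΔBor (SD, n = 3) and 147 ± 19.2 CPM in WT (SD, n = 4). The log2 fold change of Sox9 was -0.21 (SE 0.11, 95% interval -0.46 to 0.03, adjusted p = 0.436), so a fall larger than the lower bound lay outside the interval. Within a library, Kcnj2 had 0.505 and 0.532 counts per Sox9 count in Dup-C, 0.238 and 0.167 in ΔBor het, 0.343 in hom and 0.134 to 0.163 in WT. This ratio was again highest in Dup-C and higher in hom than in het. In the groups outside the comparison it was 0.192 and 0.235 in Dup-L and 0.326 to 0.46 in Dup-LΔBor.

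The sequences upstream of Kcnj2 and of Klk1b22 are shown because they are the genes of main interest that lay highest and lowest in Dup-C and because GC content is examined further on. Klk1b22 encodes a glandular kallikrein, a secreted serine protease, and lies on another chromosome than the rearranged locus. Each line holds the 250 bases before the RefSeq start on GRCm38.p6, on the plus strand, at chr11:111065914-111066163 for Kcnj2 and chr7:44112423-44112672 for Klk1b22. Capitals mark CG dinucleotides.
Kcnj2: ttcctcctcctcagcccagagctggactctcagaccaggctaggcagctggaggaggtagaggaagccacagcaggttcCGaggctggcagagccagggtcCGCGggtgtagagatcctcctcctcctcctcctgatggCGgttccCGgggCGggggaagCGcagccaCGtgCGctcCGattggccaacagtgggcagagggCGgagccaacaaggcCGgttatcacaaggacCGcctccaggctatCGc
Klk1b22: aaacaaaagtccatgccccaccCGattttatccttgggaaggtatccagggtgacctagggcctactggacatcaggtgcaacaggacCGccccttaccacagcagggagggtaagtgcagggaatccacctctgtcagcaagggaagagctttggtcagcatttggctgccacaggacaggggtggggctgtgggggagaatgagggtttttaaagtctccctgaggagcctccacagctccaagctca
Kcnj2 has 14 CG dinucleotides and a GC content of 65.6% in this window, against 2 and 56% for Klk1b22, where the median over 32851 windows was 6 CG dinucleotides.

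The other genes of the locus did not pass the threshold. The noncoding RNA 2610035D17Rik, transcribed beside Sox9, stood at 23.7 and 18.6 CPM in Dup-C and at 14.7, 11.7 and 15.5 CPM in het 1, het 2 and hom, or 0.62 in log2 fold change (SE 0.17, adjusted p = 0.213). BC006965 lay the other way, at 3.25 and 1.82 CPM in Dup-C and 5.03, 4.18 and 5.27 CPM in ΔBor (log2 fold change -0.90, SE 0.27, adjusted p = 0.264). Neither gene overlapped between the arms, which held for 31% of all genes tested, and BC006965 ran from 3.17 to 10.2 CPM in WT alone. Map2k6, a kinase of the p38 stress pathway, was at 0.08 (adjusted p = 0.767) and Slc39a11, a zinc transporter, at -0.11 (adjusted p = 0.73). Kcnj16, the gene paired with Kcnj2, reached 1 count at most in the 5 libraries and 3 in any of the 15, so it was not tested and a change was not detectable at this depth. Of 24 further genes on the flanks of the locus, 0 passed and 12 lay higher, with a median log2 fold change of -0.02. Among them, the ribosomal protein gene Rpl38 was at 0.59 (adjusted p = 0.0636) and the lipid transporter gene Abca9 at -0.55. No gene of chromosome 11 passed, of 1230 tested. Of the 9 inward-rectifier channel genes tested (15 listed), 0 passed: Kcnj8, a channel of the heart and vessels, was at -1.83 (adjusted p = 0.318).

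Over the whole transcriptome, 45 genes passed the threshold, which was 0.275% of the 16375 tested. Of these, 21 rose in Dup-C relative to ΔBor (0.128%) and 24 fell (0.147%), and 37 differed at least 2-fold. They were gathered on a few chromosomes: 13 of the 957 tested genes of chromosome 4 passed, or 1.36%, 12 of the 1153 of chromosome 7, or 1.04%, and 4 of the 777 of chromosome 6, or 0.515%. Chromosomes 17 and 18 had 2 each, 6 other chromosomes, the X among them, 1 each, and 6 of the 45 genes had no chromosome by symbol. An unadjusted p under 0.05 was reached by 2071 genes (12.6%), 1271 of them higher in Dup-C (7.76%) and 800 lower (4.89%). The arms did not overlap in 31% of all genes tested. Only 7 of the 45 passed whichever single library was left out: RP23-282C23.3, Fbxo44, Slc1a5, Hddc3, Lgals7, Mmrn1 and Zfp534. Without het 1, 8 of the 45 still passed, without Dup-C 1 11, without Dup-C 2 19, without hom 40 and without het 2 all 45. In a fit of all 15 libraries, whose spread includes that of WT, 14 of the 45 passed.

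**Figure D2:**
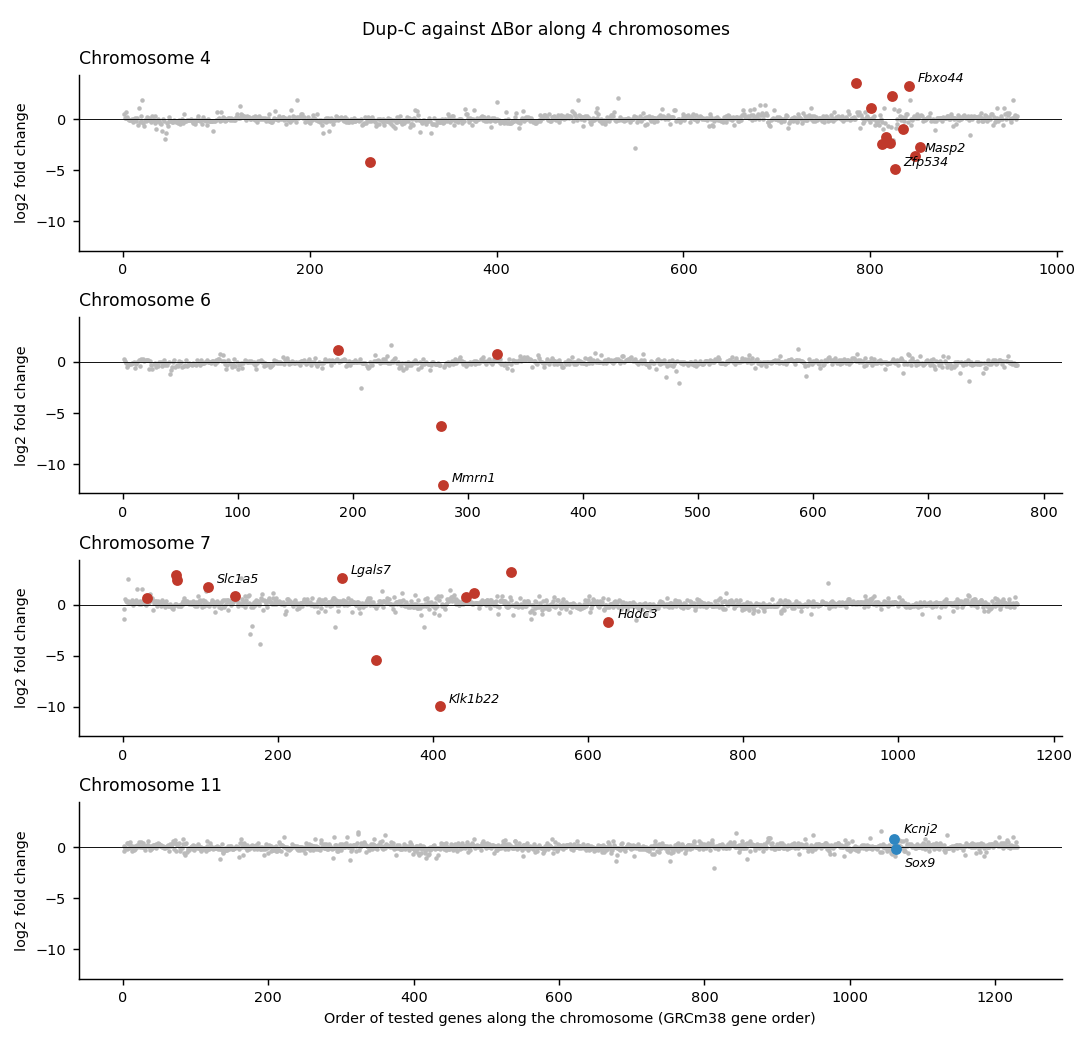
Log2 fold change (Dup-C over ΔBor) of each tested gene against its rank along chromosomes 4, 6, 7 and 11; red points passed the threshold and blue points are Kcnj2 and Sox9. Red points crowd into 1 stretch of chromosome 4, are spread along chromosome 7, and are missing from chromosome 11.

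The tightest group lay on chromosome 4, where 12 genes that passed lay among 69 consecutive tested genes, 4 higher in Dup-C and 8 lower. Many encode zinc-finger proteins of the KRAB family, whose members silence transposable elements and stand in clusters of young, similar copies. The genes of this stretch that fell were the zinc-finger genes Rex2, Zfp600, Zfp534, Gm13051 and Gm13242, with Clcn6, Masp2 and Cort, and those that rose were the zinc-finger gene Gm13152, Fbxo44, Tmem51 and 6330545A04Rik. Rex2, Zfp600, Gm13051, Clcn6 and 6330545A04Rik are named after their values were seen. The stretches before the starts of 5 zinc-finger genes are printed to show how alike they are although 1 of the genes moved the other way. For a gene with more than 1 start, the window sharing the longest run with that of Rex2 was taken. The likeness of the windows is thus partly a product of this choice. All are 250 bases of RefSeq GRCm38.p6, each read on its gene's own strand: chr4:147021600-147021849 (plus) for Rex2, chr4:146156577-146156826 (plus) for Zfp600, chr4:146097062-146097311 (plus) for Gm13051 (now Zfp987), chr4:147702632-147702881 (minus) for Zfp534 and chr4:147492167-147492416 (plus) for 1 of the starts of Gm13152 (now Zfp982). Capitals mark a run of 28 bases that all 5 hold, GTCCAGAAGGAGTGGCTCTGAGGAACCA.
Rex2: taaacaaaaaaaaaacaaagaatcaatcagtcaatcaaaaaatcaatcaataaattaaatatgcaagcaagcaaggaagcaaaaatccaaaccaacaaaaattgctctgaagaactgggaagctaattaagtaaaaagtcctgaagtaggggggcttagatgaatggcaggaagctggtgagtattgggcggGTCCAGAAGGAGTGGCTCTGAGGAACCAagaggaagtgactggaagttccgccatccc
Zfp600: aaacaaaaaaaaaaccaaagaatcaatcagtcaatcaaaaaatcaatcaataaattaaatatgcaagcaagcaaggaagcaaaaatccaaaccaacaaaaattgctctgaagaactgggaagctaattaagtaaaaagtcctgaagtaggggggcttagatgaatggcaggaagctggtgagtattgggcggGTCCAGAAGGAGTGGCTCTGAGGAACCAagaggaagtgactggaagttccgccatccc
Gm13051: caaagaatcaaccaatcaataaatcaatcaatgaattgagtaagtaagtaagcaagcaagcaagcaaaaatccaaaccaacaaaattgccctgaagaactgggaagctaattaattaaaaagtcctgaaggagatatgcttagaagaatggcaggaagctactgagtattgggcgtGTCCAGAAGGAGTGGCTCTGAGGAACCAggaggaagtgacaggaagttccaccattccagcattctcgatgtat
Zfp534: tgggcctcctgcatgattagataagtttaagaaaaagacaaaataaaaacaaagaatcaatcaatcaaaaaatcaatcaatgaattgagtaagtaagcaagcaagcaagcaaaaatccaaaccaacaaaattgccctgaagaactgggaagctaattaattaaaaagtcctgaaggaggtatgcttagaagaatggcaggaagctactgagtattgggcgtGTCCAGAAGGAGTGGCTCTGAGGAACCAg
Gm13152: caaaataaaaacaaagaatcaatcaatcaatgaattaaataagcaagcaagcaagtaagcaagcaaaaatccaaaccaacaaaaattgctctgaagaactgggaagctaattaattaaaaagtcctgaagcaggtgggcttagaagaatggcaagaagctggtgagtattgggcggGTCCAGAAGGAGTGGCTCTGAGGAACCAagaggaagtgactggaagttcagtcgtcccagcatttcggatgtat
Between pairs of these windows identity ran from 63.9% to 99.2%, the latter for Rex2 and Zfp600. The run was searched on both strands in all 32851 windows, which for this search also held the 50 bases after the start. It was found in 8 of them, or 0.0244%. The 8 windows belong to 8 symbols, of which 7 were tested, all on chromosome 4. Of these 7, 1 rose, 5 fell, and Gm13154 was at -2.06 (adjusted p = 0.0969), with a median log2 fold change of -2.17. The run was defined from 5 of these 7, picked among genes that passed, so their directions are no result about the run. Only Gm13242, at -2.46, and Gm13154 were not used to define it. A shared run describes these windows only. Reads of such similar genes may also have been shared between copies by the counting; how the authors counted them is not known here.

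Zfp534, 1 of the 7 genes that passed with any library left out, stood at 0.135 and 0.257 CPM in Dup-C and at 7.46, 3.97 and 5.75 CPM in het 1, het 2 and hom. It was nearly silent in Dup-C (log2 fold change -4.87, SE 0.43, adjusted p = 0.0065), but not in Dup-C alone. Zfp534 was at 0.0379, 0.0375 and 0.058 CPM in WT 1, 2 and 4 and at 1.94 CPM in WT 3. In Dup-L it was at 0.194 and 0.0822 CPM, and in Dup-LΔBor at 0.0633 CPM or less. Gm13152 went the other way, with 8.85 and 11.7 CPM in Dup-C and 2.07, 2.66 and 1.9 CPM in ΔBor (log2 fold change 2.25, SE 0.22, adjusted p = 0.00849). Its level in 3 of the 4 WT libraries was like that of Dup-C (10.4, 10.3 and 7.95 CPM), whereas WT 3 was at 0.726 CPM. Fbxo44, an F-box gene whose protein selects targets for ubiquitination, stood at 16.1 and 10.7 CPM in Dup-C and 1.35, 1.55 and 1.32 CPM in ΔBor (log2 fold change 3.27, SE 0.22, adjusted p = 0.00183). The same split ran through WT, with 13.5, 17.3 and 19.2 CPM in WT 1, 2 and 4 and 1.12 CPM in WT 3. Masp2, which encodes a serine protease of the lectin pathway of complement, stood at 0.135 and 0.205 CPM in Dup-C and at 2.15, 2.26 and 1.77 CPM in ΔBor. It fell by 3.58 on the log2 scale (adjusted p = 0.00849). WT 1, 2 and 4 had Masp2 at 0.19, 0.281 and 0.377 CPM, nearer to Dup-C, and WT 3 at 2.42 CPM. Cort, the gene of the neuropeptide cortistatin, fell by 2.70 (adjusted p = 0.0295) and Gm13242 by 2.46 (adjusted p = 0.0295), and Tmem51, a membrane protein gene, rose by 1.13 (adjusted p = 0.0288). Of the 12 genes of this stretch, 2 passed without het 1 (Zfp534 and Fbxo44), 3 without Dup-C 1, 6 without Dup-C 2, 11 without hom and 12 without het 2. In the fit of all 15 libraries 1 of the 12 passed, Tmem51.

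On chromosome 6, Mmrn1, which encodes multimerin, a glycoprotein of platelets and vessels, fell. Mmrn1 had 0 counts in both Dup-C libraries and 655, 591 and 284 counts in het 1, het 2 and hom, or 17, 15.6 and 7.49 CPM. Against a floor of 3 counts per library Mmrn1 was at least 198-fold lower in Dup-C (adjusted p = 0.0058). WT libraries held both states, with Mmrn1 at 0 CPM in WT 1 and at 6.26, 14.1 and 13.7 CPM in WT 2, 3 and 4. The labels give no strain, so genotype at the locus and genetic background cannot be told apart for this gene. Mmrn1 passed with any library left out but not in the fit of all 15 libraries.

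**Figure D3:**
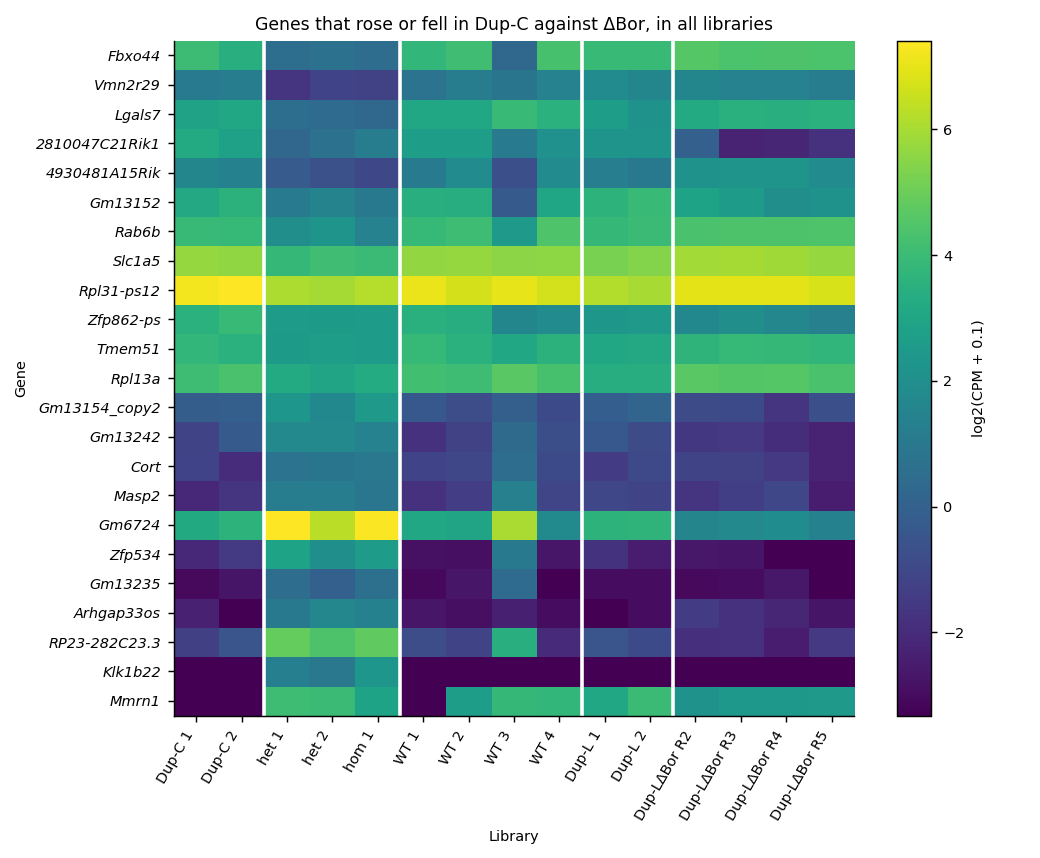
Heat map of log2(CPM + 0.1) of 23 named genes that passed the threshold (rows) in all 15 libraries (columns, by group). Rows that are dark or light across both Dup-C libraries mostly keep that shade in WT 1, and WT 3 departs from the other WT libraries in Fbxo44 and Gm13152.

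Chromosome 7 held 12 of the genes that passed, 9 higher in Dup-C and 3 lower, spread over a large part of its length. Slc1a5, a transporter of glutamine and other neutral amino acids, stood at 52.2 and 49.3 CPM in Dup-C and at 14.2, 17.2 and 16 CPM in het 1, het 2 and hom. Its log2 fold change was 1.71 (SE 0.12, adjusted p = 0.00183), and WT, at 46.3 to 52.4 CPM, was at the Dup-C level. Lgals7, the gene of galectin-7 of stratified epithelia, stood at 7.08 and 8.22 CPM in Dup-C and 1.37, 1.24 and 1.13 CPM in ΔBor, against 8.34 to 15.5 CPM in WT (log2 fold change 2.64, SE 0.20, adjusted p = 0.00277). For both genes the ΔBor libraries lay below all WT libraries. The Dup-LΔBor libraries, which also carry a boundary deletion, did not share this: they stood at 52.7 to 61.8 CPM for Slc1a5 and 9.44 to 11.6 CPM for Lgals7. Dup-L stood at 38.4 and 42.2 CPM for Slc1a5 and at 6.21 and 4.52 CPM for Lgals7, below WT but above ΔBor. Slc1a5 and Lgals7 were also the only genes of those named that passed under all 20 fits run. Vmn2r29, a pheromone receptor gene, was at 1.98 and 2.16 CPM in Dup-C and at 0.207, 0.342 and 0.316 CPM in ΔBor (log2 fold change 2.86, SE 0.30, adjusted p = 0.0128). 2810047C21Rik1 rose by 2.36 (adjusted p = 0.0254). Of these 12 genes, 3 passed without het 1, 4 without Dup-C 1, 6 without Dup-C 2, 10 without hom and 12 without het 2. Vmn2r29 and 2810047C21Rik1 were among those lost without het 1 or Dup-C 1.

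Klk1b22, also on chromosome 7, was read in ΔBor alone. It had 0 counts in both Dup-C libraries and 93, 72 and 184 counts in het 1, het 2 and hom, or 2.41, 1.89 and 4.85 CPM. It had 0 counts too in the 4 WT and 2 Dup-L libraries, and in the 4 Dup-LΔBor libraries, which also carry a boundary deletion. All its reads thus came from the 3 ΔBor libraries, with the highest level in hom. Against a floor of 3 counts per library it was at least 45.3-fold lower in Dup-C (edgeR adjusted p = 0.0214), a bound that covers counting error only. Genes that passed did so with hom inside the ΔBor arm, which favours a hom level near that of het. For Klk1b22 the hom library held 2.25 times the het mean, the highest such ratio among the 24 genes that fell, whose median was 1.01. The call was lost without Dup-C 1 (adjusted p = 0.1), Dup-C 2 (adjusted p = 0.0544) or het 1 (adjusted p = 0.111). Of the 26 kallikrein genes in the table only 6 had enough counts to be tested: 1 fell, Klk1b22, and the median log2 fold change was -0.26. The kallikrein copies are near-identical, so reads may have been shared among them. Arhgap33os fell too, at 0.0962 and 0 CPM in Dup-C and 1.94, 3 and 2.5 CPM in ΔBor (adjusted p = 0.0149), but not without het 1. It lies antisense to Arhgap33, a gene at 0.00 (adjusted p = 0.995), and with no strand setting given, reads of the 2 cannot be told apart.

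Of the remaining named genes, Rab6b, a small GTPase of Golgi transport, rose: it stood at 14.9 and 14.4 CPM in Dup-C and at 3.81, 4.58 and 2.58 CPM in ΔBor (log2 fold change 2.03, SE 0.22, adjusted p = 0.0149). RP23-282C23.3, a transcript named after its clone, had the lowest p of all genes, with 0.308 and 0.616 CPM in Dup-C and 29.4, 21.5 and 27.8 CPM in ΔBor (log2 fold change -5.84, SE 0.30, adjusted p = 6.6e-04). It was below 0.5 CPM in 3 WT libraries and at 10.5 CPM in WT 3. The pseudogene Gm6724 fell by 3.67 on the log2 scale (adjusted p = 0.0149), as did Gm13235 by 5.06 (adjusted p = 0.0149) and Gm13154_copy2 by 2.42 (adjusted p = 0.0261), and reads of such copies may belong to their parent genes. 4930481A15Rik rose by 2.31 (adjusted p = 0.0248), Rpl31-ps12 by 1.25 (adjusted p = 0.00684) and Zfp862-ps by 1.22 (adjusted p = 0.0314). Among the genes of this paragraph only RP23-282C23.3 passed with any 1 library left out. All the others were lost without het 1, all but Rpl31-ps12 also without Dup-C 1, Gm6724, Gm13154_copy2, 4930481A15Rik and Zfp862-ps also without Dup-C 2, and Gm6724 without hom too (adjusted p = 0.0694).

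The 10 WT, Dup-L and Dup-LΔBor libraries, which entered neither arm, show to which arm these genes were closer elsewhere. On the log2(CPM + 0.1) scale, WT 1 was nearer to the Dup-C mean than to the ΔBor mean in 45 of the 45 genes, WT 2 in 39, WT 4 in 36 and WT 3 in 22. For all tested genes the same shares were 71.5%, 54.9%, 54.8% and 59.6%. Both Dup-L libraries were nearer to Dup-C in 32 genes and the Dup-LΔBor libraries in 36 or 37. Over all tested genes these shares were 29.9% and 28.5% in Dup-L and 53.4% to 62.8% in Dup-LΔBor. On chromosome 4 the 13 genes were on the Dup-C side in all 13 cases in WT 1, WT 2 and both Dup-L libraries, but in 3 in WT 3. On chromosome 7 the WT libraries were nearer to Dup-C in 11 or 12 of 12 genes, the Dup-LΔBor libraries in 11 and the Dup-L libraries in 8. On chromosome 6, WT 1 was nearer to Dup-C in all 4 genes, WT 2 in 2, and the other 8 libraries in 0. In 3 of the 4 WT libraries most of the 45 genes thus lay nearer to Dup-C, and on chromosomes 4 and 6 the WT libraries themselves differed. Genotype and genetic background cannot be told apart here, since the labels name no strain.

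Among the 3 ΔBor libraries, the homozygous one stood close to the heterozygous mean for the middle of these genes. The hom level over the het mean had a median of 0.996 among the 20 genes that rose and had reads in ΔBor, from 0.616 for Rab6b to 1.77 for 2810047C21Rik1. Among the 24 that fell it ran from 0.46 for Mmrn1 to 2.25 for Klk1b22. The ratio was 1.62 for Kcnj2 and 0.956 for Sox9, which did not pass and so are not a like comparison. The genes passed with hom inside the ΔBor arm, which favours genes where hom and het are alike. The medians are thus partly a product of that choice and are no result about dose. With 1 hom library this has no replicate check.

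Gene lists that describe the limb bud and its cells showed no member past the threshold in most cases, and are given by their counts beside a median of 0.003 and 50.4% higher over all genes. Skeletal lists had medians below 0. The cartilage list, with collagen and aggrecan genes of the matrix that Sox9 drives, had 0 of 20 members past the threshold and 3 higher, with a median of -0.31. Its summed level was 2302 and 1364 CPM in Dup-C and 2114, 2491 and 1934 CPM in het 1, het 2 and hom. Dup-C 2 alone was below all ΔBor libraries, and Dup-C 1 lay among them. The collagen gene Col11a1 was at -0.56 (adjusted p = 0.339). Hypertrophic cartilage and bone (0 of 12, median -0.19), joint interzone (0 of 14, median -0.31) and tendon (0 of 11, median -0.34) also had negative medians. Their summed levels overlapped between the arms, and hom lay below Dup-C 1 in each. Their members of lowest p were Runx2, the master regulator of bone, at -0.75 (adjusted p = 0.279), the transcription factor gene Mef2c at -0.35, the matrix genes Dcn at -0.88 (adjusted p = 0.35) and Prg4 at -1.17, and in tendon the regulator Mkx at -0.34 and the matrix gene Kera at -0.45. Of 12 Sox transcription factor genes 0 passed (median -0.17), with Sox6, a partner of Sox9 in cartilage, at -0.48 (adjusted p = 0.311) and Sox11 at -0.27 (adjusted p = 0.339).

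**Figure D4:**
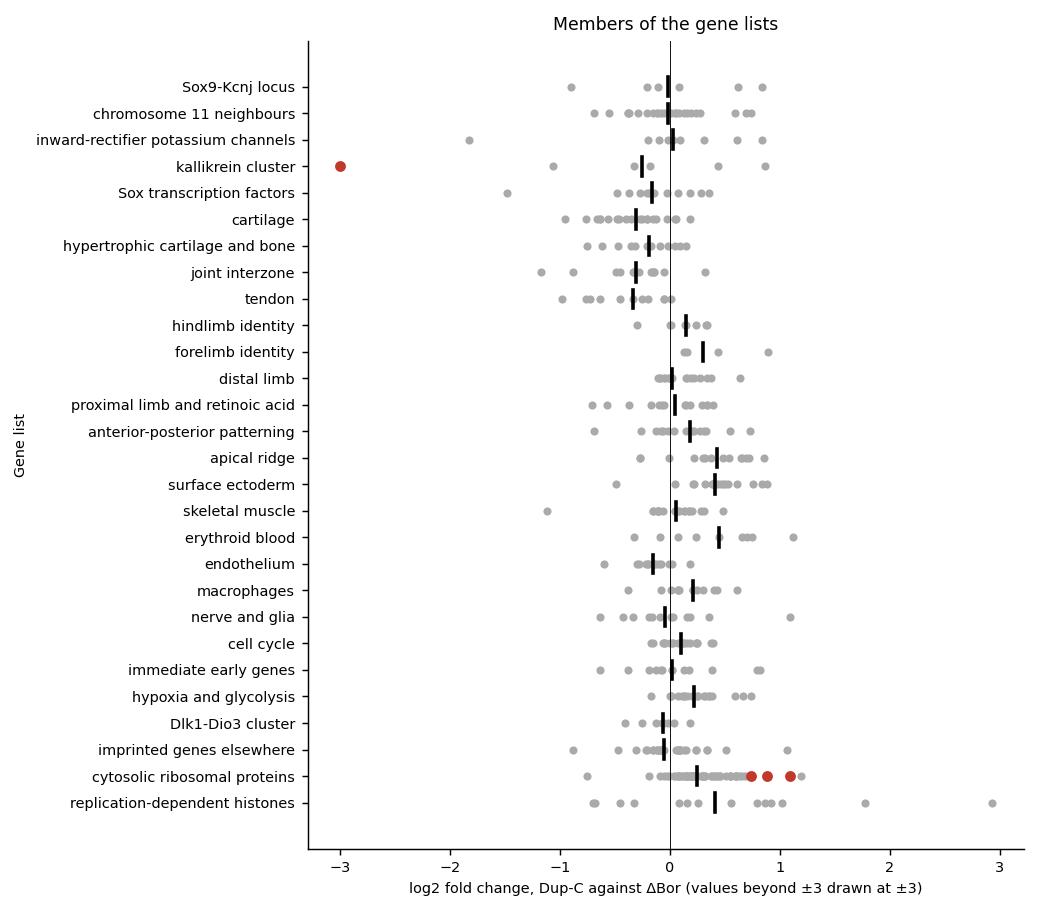
Log2 fold change (Dup-C over ΔBor) of the tested members of each gene list, 1 point per gene, with a bar at the list's median; red points passed the threshold and values are clipped at 3 and -3. Surface ectoderm, apical ridge and ribosomal protein genes lie mostly to the right of 0 and cartilage, joint and tendon genes mostly to the left, and 3 ribosomal protein genes and Klk1b22 are red.

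Most epithelial genes lay higher in Dup-C, and none of these lists' members passed in the fit of the 5 libraries. Of 18 surface ectoderm genes, which form the embryonic skin, 0 passed, 17 lay higher and 10 had an unadjusted p under 0.05, all higher, with a median of 0.41. Over all genes tested, 7.76% lay higher with such a p. Krt17, a keratin of the early epidermis, stood at 50.2 and 53.8 CPM in Dup-C and 24.3, 34.4 and 27.5 CPM in ΔBor (log2 fold change 0.88, adjusted p = 0.0737). Krt14, the basal-layer keratin, was at 0.61 (adjusted p = 0.145). Krt17 passed in 5 of the 20 fits, with GC and length offsets (adjusted p = 0.0375), all 15 libraries (0.0431), no filter, DESeq2 (6.8e-05) and without het 2, and Krt14 in 3, with no filter, DESeq2 and without het 2. The summed surface ectoderm level was 871 and 1024 CPM in Dup-C and 668, 810 and 668 CPM in ΔBor, which did not overlap, while WT ran from 866 to 1226 CPM. The apical ridge, the epithelial signalling centre at the limb tip, had 0 of 14 past the threshold and 11 higher (median 0.42), with the Wnt inhibitor Dkk1 at 0.69 (adjusted p = 0.25) and En1, which marks ventral ectoderm, at 0.66 (adjusted p = 0.263). Galectin-7, which rose, is an epithelial gene too. The part of the share of epithelium in its change was not tested.

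Genes of housekeeping pathways gave the only list with several members past the threshold. Of 59 cytosolic ribosomal protein genes, 3 rose and 0 fell, 53 lay higher and the median was 0.25. Over all genes tested, 0.128% rose. Rps28 stood at 427 and 423 CPM in Dup-C and at 213, 249 and 244 CPM in ΔBor (log2 fold change 0.88, adjusted p = 0.0169). Rpl37 stood at 444 and 456 CPM against 252, 279 and 294 CPM (log2 fold change 0.74, adjusted p = 0.0346), and Rpl13a at 17 and 19.9 CPM against 9.25, 7.66 and 9.52 CPM (log2 fold change 1.09, adjusted p = 0.0431). Each of these 3 genes was higher in both Dup-C libraries than in all ΔBor libraries, as were 14.5% of all genes tested. None of the 3 passed without Dup-C 1, Dup-C 2 or het 1, all 3 passed without hom or het 2, and Rpl13a did not pass with GC and length offsets. Processed copies of ribosomal protein genes are common, so their reads may be shared. The summed level of the list was 46222 and 44766 CPM in Dup-C and 35820, 40274 and 39078 CPM in ΔBor. In WT the sum ran from 38653 to 50481 CPM, from within the ΔBor range to above Dup-C. In Dup-L, Rps28 was at 208 and 178 CPM, Rpl37 at 249 and 222 CPM and Rpl13a at 10.1 and 10.2 CPM, near ΔBor. In WT they ran from 369 to 657, 355 to 825 and 16.7 to 25.1 CPM. Of 21 genes of hypoxia and glycolysis 0 passed and 19 lay higher (median 0.22). Ldha, lactate dehydrogenase, stood at 902 and 890 CPM in Dup-C and 533, 581 and 606 CPM in ΔBor (log2 fold change 0.67, adjusted p = 0.0614), and the phosphofructokinase gene Pfkl was at 0.59 (adjusted p = 0.0816). Ldha and Pfkl each passed in 5 of the 20 fits, among them GC and length offsets (adjusted p = 0.0384 and 0.0403) and DESeq2.

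No patterning gene passed. Distal limb (0 of 17, median 0.02), proximal limb and retinoic acid (0 of 14, 0.05) and anterior-posterior patterning (0 of 17, 0.18) had no member past the threshold. Among their genes of lowest p were Msx2 of the distal mesenchyme at 0.37 (adjusted p = 0.207), Lhx2 at 0.19, the retinoic acid enzyme gene Cyp26b1 at 0.34, Crabp2 at 0.18, and the hedgehog-binding protein gene Hhip at -0.69. The proximal limb median was -0.00 with GC and length offsets. Hindlimb identity (0 of 8, median 0.14; Hoxc13 at 0.34, Isl1 at -0.30) and forelimb identity (0 of 4, median 0.30; Hoxc6 at 0.89 with adjusted p = 0.286, Hoxc5 at 0.44) did not separate the arms either. Tbx4, of the hindlimb, was at 0.14 and Pitx1 at 0.01 (adjusted p = 0.996).

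Other cell types of the bud had no member past the threshold. Skeletal muscle (0 of 21, median 0.06; Myf6 at -1.12, Tnnt1 at 0.31) summed to 648 and 644 CPM in Dup-C and 582, 918 and 457 CPM in ΔBor, and its median was -0.04 with GC and length offsets. Erythroid blood (0 of 9, median 0.45; Gata1 at 1.12, Alas2 at -0.33) summed to 4226 and 4057 CPM against 3031, 3251 and 6035 CPM. In both lists the ΔBor libraries enclosed Dup-C, between hom and het 2 in muscle and between het 1 and hom in blood. Endothelium (0 of 15, median -0.15; Kdr at -0.30, Tek at -0.28), macrophages (0 of 14, 0.21; Pf4 at 0.61, Mrc1 at -0.38) and nerve and glia (0 of 12, -0.04; Tubb3 at 1.09 with adjusted p = 0.126, Erbb3 at 0.36) had medians within 0.21 of 0. The nerve and glia median was 0.01 with GC and length offsets. Cell cycle (0 of 20, median 0.10; Mcm5 at 0.37, Plk1 at 0.39) and immediate early genes (0 of 13, 0.02; Hspa1b at 0.79, Egr1 at -0.64, median -0.13 with GC and length offsets) had none either. Nor did the imprinted Dlk1-Dio3 cluster (0 of 8, -0.06; Rian at -0.25, Begain at 0.18), imprinted genes elsewhere (0 of 31, -0.05; Usp29 at -0.31, Tssc4 at 0.34) and histones (0 of 14, 0.41; Hist1h4c at 2.93 with adjusted p = 0.0866, Hist1h4i at 1.78), whose transcripts largely lack the tail that the library kit selects. Of the mitochondrially encoded genes only mt-Nd4 was in the table, at -0.07. The sex-linked list (0 of 4 tested; Kdm5d at -0.54, Eif2s3y at -0.53) varied within both arms.

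Fold changes varied with GC content, the share of G and C bases in a gene's transcript. Over 5 equal bins of about 3029 genes from low to high GC, the median log2 fold change was -0.12, -0.07, 0.00, 0.09 and 0.17. GC-rich genes thus lay higher in Dup-C and GC-poor genes lower. GC content and transcript length together accounted for 9.78% of the variance in fold change across 15145 genes. The genes that rose had a median GC content of 54.6% and those that fell 47%, against 49.8% for all genes. By bin, 2, 0, 4, 5 and 8 genes rose and 8, 1, 3, 3 and 3 fell, so more of the genes that rose were GC-rich.

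**Figure D5:**
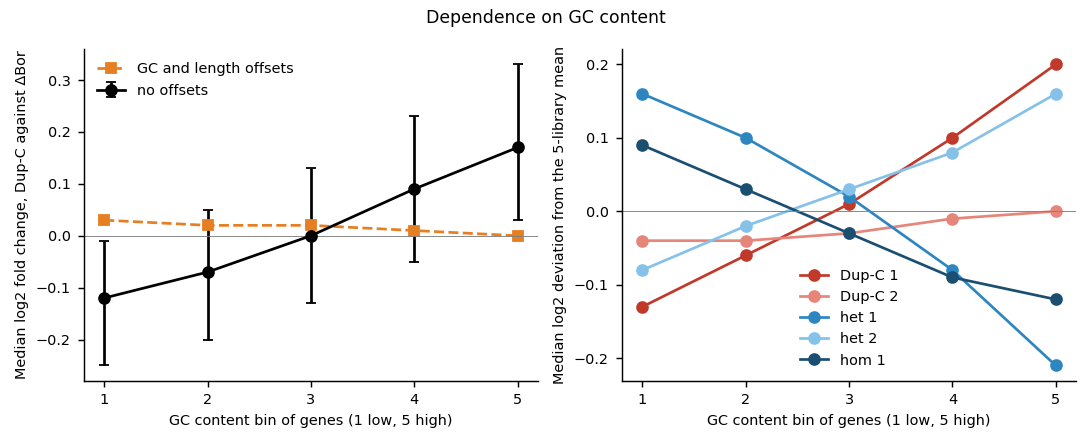
Left, median log2 fold change (Dup-C over ΔBor, with quartiles) in 5 bins of GC content, before and with GC and length offsets; right, each library's median deviation from the mean of the 5 libraries in the same bins. The slope from -0.12 to 0.17 on the left is flat with offsets, and on the right Dup-C 1 rises with GC, het 1 and hom fall, and het 2 rises against its own arm.

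The dependence differed between libraries of the same arm. From the lowest to the highest bin, the median deviation of a library from the mean of the 5 went from -0.13 to 0.20 in Dup-C 1 and from -0.04 to -0.00 in Dup-C 2. In ΔBor it went from 0.16 to -0.21 in het 1, from -0.08 to 0.16 in het 2 and from 0.09 to -0.12 in hom. Het 2 thus sloped with Dup-C 1 and against the other ΔBor libraries, and without het 2 the share of variance was 20.9% and 302 genes passed. With GC and length fitted as offsets the bin medians were 0.03, 0.02, 0.02, 0.01 and 0.00 and the share 0.00749%. The offsets gave 90 genes past the threshold, 55 higher and 35 lower, and of the 37 original calls with a GC content 35 still passed. Kcnj2 was then at 1.01 (adjusted p = 0.225). Ribosomal protein genes kept a median of 0.20.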

How the data were processed

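PolyA RNA-seq libraries of E12.5 limb buds (TruSeq RNA V2, per the labels' protocols) were aligned with STAR to mm9, per the submitters' processing notes, which also name DESeq2 and bedtools 2.17.0. The counting tool, its annotation and the use of strand are not given in the sources used. The authors deposited raw counts for 34682 genes, of which 11702 were at 0 in the 5 libraries compared. A second deposited table holds FPKM values of the authors. The labels number the hom library as replicate 1.

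In R 4.3.3, counts were fitted with edgeR 4.0.16 (TMM, filterByExpr by arm, robust quasi-likelihood F-test, two-sided) in the 5 libraries as 2 arms, with Benjamini-Hochberg adjustment over 16375 genes and a threshold of 0.05. An adjusted p without a named tool is from this fit. "Rose" and "fell" refer to genes past the threshold, in Dup-C relative to ΔBor. Levels are CPM, counts scaled to each library's total, without the TMM factors that the fits used. Alternatives used DESeq2 1.42.0 and limma 3.58.1 on log2(FPKM + 0.1) or log2(FPKM + 1) of the deposited values, GC and length offsets, other scalings and filters, a replicate block, and each library left out. A fit with libraries high in Xist as a term and one with the replicate numbers crossed were added after seeing the data. A gene with 0 counts in an arm has its bound against 3 counts per library, and its fitted fold change depends on a prior count.

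Chromosome, neighbour order, GC content and length came by symbol from a GRCm38 annotation, another build than the files, for 92.9% (chromosome) and 92.5% (GC) of genes tested. Promoter windows are RefSeq's. No gene that passed had counts identical to another's, and 2 carry a copy suffix. No pair of libraries within Dup-C or ΔBor looked like 1 library under 2 names (mean chi-square per gene 25.1 or more). The Dup-LΔBor columns R4 and R5 carry 1 library number but differed (27.3, against 6.28 to 35.5 for other Dup-LΔBor pairs) and were counted as 2 libraries. Genes and lists were chosen with earlier results of these data known. Named are the locus genes, the 12 highest and 12 lowest fold changes among genes past the threshold that did not overlap between arms and had at least 1 CPM in the higher arm, and in each list up to 4 genes past the threshold or the 2 of lowest p, and 2 genes that this rule names are not reported here. On simulated data for this comparison (16183 genes), 64 of 100 genes changed 2-fold and 98 of 100 changed 4-fold were recovered, with 14 false calls. Only genes above a minimum expected count were changed, and the simulated libraries varied independently, with no GC slope of their own. These rates may therefore not hold for the real libraries.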

Additional observations from a re-analysis of the deposited data

How the results depend on the processing

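Precision is limited by 2 libraries against 3 and by 1 hom library. The 45 calls became 18 (5 higher, 13 lower) against hom alone, where the lone library is assumed to vary like the others, 141 (92 and 49) with no filter, 90 (55 and 35) with GC and length offsets and 21 with a replicate block and GC and length offsets. DESeq2 gave 339 (212 and 127, with all 45 among them), and limma on FPKM gave 29 with a pseudocount of 0.1, 19 with 1 and 42 with no filter. The replicate block alone gave 36, of which 34 were shared. The numbers 1 and 2 are shared by label only: deviations of same-numbered libraries correlated at -0.113, and with the numbers crossed 87 genes passed. A fit of all 15 libraries gave 39 (26 and 13), 14 of them shared, RLE size factors 44, het and hom as own groups 47 and Xist as a term 32. Leaving out 1 library gave 9 (het 1) to 302 (het 2) genes, with 12 without Dup-C 1, 26 without Dup-C 2 and 63 without hom. Kcnj2 passed in DESeq2 (0.83, adjusted p = 0.0404), and with 1 library left out ran from 0.62 to 1.13. Other named genes that missed the threshold but passed in 1 or more fits were Krt17, Ldha and Pfkl (5 fits each), Rpl38 and Hist1h4c (4), Krt14 and Tubb3 (3), Hist1h4i (2) and Dcn, Tnnt1 and Hspa1b (1), of which 9 passed without het 2. The direction of Kcnj2 held in all 20 fits, as did that of Sox9 (-0.37 to -0.08). The fitted log2 value of Klk1b22, which is no bound, was -2.06 (adjusted p = 0.0831) with limma and a pseudocount of 1, and -10.24 to -9.48 with 1 library left out (adjusted p up to 0.111). The share of variance from GC content and length was 0.00749% with offsets and 2.35% to 20.9% with 1 library left out. Signs turned for genes near 0 or on the Y chromosome: against hom alone Map2k6 (-0.02), Kdr (0.02), Kdm5d (10.66) and Eif2s3y (9.97), with het and hom as own groups Kdm5d (4.77) and Eif2s3y (4.43), with GC and length offsets Begain (-0.004) and mt-Nd4 (0.10), and with block and offsets Begain (-0.005) and mt-Nd4 (0.11). With 1 library left out, Map2k6 ran from -0.01 (without Dup-C 2) to 0.16, Begain from -0.08 (without Dup-C 1) to 0.46, mt-Nd4 from -0.19 to 0.02 (without Dup-C 1), Kdm5d from -11.23 to 0.49 and Eif2s3y from -13.80 to 0.48 (both without Dup-C 1, and above 0 without het 1 too). The cause was not tested.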

Other observations

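Further genes past the threshold, named here after their values were seen, show the same kinds of pattern. Hddc3, a hydrolase gene of chromosome 7 and 1 of the 7 genes that passed with any library left out, stood at 12 and 10.6 CPM in Dup-C and at 34.9, 37.6 and 39.9 CPM in het 1, het 2 and hom (log2 fold change -1.70, SE 0.12, adjusted p = 0.00257). Its WT level of 11.4 to 14.6 CPM was close to that of Dup-C. Mid1, a microtubule-binding ubiquitin ligase gene of the X chromosome, stood at 23.1 and 18.4 CPM in Dup-C and at 89.4, 57.6 and 63.9 CPM in ΔBor (log2 fold change -1.73, SE 0.20, adjusted p = 0.0183). WT held both states of Mid1, with 25 CPM in WT 1 and 92.2, 105 and 54.3 CPM in WT 2, 3 and 4. WT 1, Dup-C 1 and hom are the libraries high in Xist. Within the arms, hom lay between het 2 and het 1 in Mid1, and Dup-C 1 lay above Dup-C 2. The fit with libraries high in Xist as a term tested the arms and not Xist, so the part of Xist status in the Mid1 levels was not tested.

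Glo1, which detoxifies methylglyoxal, stood at 114 and 122 CPM in Dup-C and at 186, 182 and 196 CPM in ΔBor (log2 fold change -0.64, SE 0.09, adjusted p = 0.0438). WT 1 and 2 were at 108 and 104 CPM and WT 3 and 4 at 145 and 151 CPM, between the arms. Tmsb10, an actin-binding thymosin gene, stood at 498 and 481 CPM in Dup-C and at 272, 311 and 274 CPM in ΔBor (log2 fold change 0.81, SE 0.10, adjusted p = 0.0201), with 482 and 487 CPM in WT 1 and 2 and 352 and 296 CPM in WT 3 and 4. For Glo1 and Tmsb10 the WT libraries thus differed between the ranges of library numbers, of which WT 1 and 2 share that of Dup-C and ΔBor. Eps8R1 had 0 counts in all 3 ΔBor libraries and 0.577 and 0.847 CPM in Dup-C, at least 9.06-fold higher in Dup-C against 3 counts per library. WT 1, 2, 3 and 4 were at 0.796, 0, 0.335 and 0.522 CPM for Eps8R1. Dup-L was at 0 and 0.0274 CPM and Dup-LΔBor between 0.0633 and 0.646 CPM. AK138161_gene had 0 counts in both Dup-C libraries and was at least 11.9-fold lower there. It was at 0 CPM too in WT 1, WT 2, Dup-L and Dup-LΔBor, and at 0.186 and 0.203 CPM in WT 3 and 4. Of these 6 genes only Hddc3 passed with every single library left out.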
